A study of Homo sapiens with 4 samples.

Results

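The genes described here encode the enzymes, membrane proteins and proton pump of the lysosome together with adaptors of autophagy. They were chosen by name, as 43 listed genes, and every probe set was taken whose only gene in the array's annotation is one of them. Of the 22277 probe sets on the array, 85 met this rule, and they read 42 of the 43 genes and of the 11963 genes that had a probe set of their own. The probe set of GLB1, the lysosomal beta-galactosidase, is not listed for that gene alone, and GLB1 was not analysed here.

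MDA-MB231 is an established human breast cancer cell line. RNA was measured in 4 conditions, namely PIAS1 shRNA2 cells in SCM, control shRNA cells in SCM, PIAS1 shRNA2 cells in DMEM and control shRNA cells in DMEM, each after 30 h in its medium. PIAS1 is a SUMO ligase that acts on transcription factors and chromatin, and the study asked which genes depend on it in SCM. SCM, or Stem Cell Media, is a serum-free DMEM/F-12 with albumin, glutamine, EGF, basic FGF and insulin, whereas the DMEM condition held 10% FBS. Both lines are stable lines made with a lentivirus under drug selection, the control carrying a scrambled hairpin, so the knockdown cannot be told apart from any other difference between these 2 lines. Each condition was measured on 1 Affymetrix human expression array. A ratio of 2 arrays therefore has no replicate check, and it is given without a p-value.

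Lysosomal hydrolases are made in the endoplasmic reticulum, tagged with mannose 6-phosphate in the Golgi and carried by receptors to the lysosome, where a proton pump, the V-ATPase, keeps the lumen acid enough for them to work. Autophagy delivers cytoplasm to the same compartment in vesicles coated with proteins of the LC3 and GABARAP family, and adaptors such as p62 bring ubiquitin-tagged cargo into them. Many of these genes are known to be bound near their start sites by TFEB and its relatives TFE3 and MITF, which move to the nucleus when the nutrient-sensing kinase mTORC1 is low, and inherited loss of single hydrolases causes lysosomal storage diseases.

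The element that these factors bind is built on the palindrome CACGTG. In the RefSeq windows of GRCh38.p14, which run from 250 bases before to 50 bases after an annotated start, 29 of the 43 genes had at least 1 window, with 36 windows in all. CACGTG was found in the windows of 8 genes, or 22.2% of the 36 windows, against 7.26% of all 35116 windows. The longer form TCACGTGA was in the windows of 5 genes, or 13.9% against 0.980%. Both forms are their own reverse complement, so that one strand gives both, and the longer form contains the shorter one. A match is a description of letters and not a binding site. The stretches below are shown because the 5 genes with the longer form took both directions between the media, as given further on. Each is 30 bases, 5' to 3' on the strand of the gene, with the palindrome in capitals.
GAA, chr17:80101493-80101522, plus strand: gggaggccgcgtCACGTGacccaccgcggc
GAA, chr17:80101538-80101567, plus strand: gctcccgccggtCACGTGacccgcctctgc
CTSA, chr20:45891298-45891327, plus strand: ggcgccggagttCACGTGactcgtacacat
LAMP1, chr13:113297199-113297228, plus strand: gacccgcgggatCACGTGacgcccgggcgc
MCOLN1, chr19:7522598-7522627, plus strand: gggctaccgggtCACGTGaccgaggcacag
ATP6V0D1, chr16:67481199-67481228, minus strand: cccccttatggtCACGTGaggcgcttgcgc

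The palindrome began 76 and 31 bases before the start site in GAA, 25 in CTSA, 28 in LAMP1, 14 in MCOLN1 and 59 in ATP6V0D1. MCOLN1 held a second TCACGTGA, 41 bases before its start site. LAMP1 had 6 such palindromes in its window, 2 of them in the longer form. NEU1, CTSD and ARSB held the palindrome only in its short form.

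The deposited values are MAS5 signals, a linear array intensity. The median signal was 605 on both SCM arrays and 591 and 569 on the PIAS1 shRNA2 and control shRNA arrays in DMEM, and the 3' over 5' signal ratio of ACTB, which tracks RNA integrity, was 1.11 and 1.07 in SCM and 0.946 and 0.982 in DMEM. Signals below 213 were treated as background, a floor taken from probe sets of genes of other tissues, and were raised to it before any ratio. Across all probe sets, the log2 signals of 2 arrays correlated at 0.987 in SCM and 0.991 in DMEM, and at 0.942 to 0.947 between media. PIAS1 itself, on its brightest probe set, read 671 in PIAS1 shRNA2 cells and 1814 in control shRNA cells in SCM, and 512 and 1383 in DMEM, which is 37.0% of control in both media. A second probe set gave 31.5% of control in SCM and 23.8% in DMEM. The last gave 77.9% in SCM, and in DMEM its signal of 158 in PIAS1 shRNA2 cells, against 684 in control shRNA cells, was below the floor. Of 4 genes known to be high in MDA-MB231 cells, among them VIM and CD44, all were above the floor on every array. Of 5 known to be low, 2 were below it on every array, among them CDH1, the epithelial cadherin. The others were not: ERBB2, at 1677 to 2376, and EPCAM, at 486 to 1067, were above the floor on all 4 arrays. ESR1, on the brightest of its 9 probe sets, was above the floor on 3 arrays. It read 357 and 706 on that probe set in PIAS1 shRNA2 and control shRNA cells in SCM. By Q-PCR the study did not detect ESR1 in control shRNA cells and reported it as induced by PIAS1 knockdown.

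Lysosomal genes were among the well-measured genes of these cells. Of the 42 genes, 41 were above the floor on all 4 arrays, and 39 were above the array median of 605 on all of them. Of all 11963 genes, 7482 were above the floor and 6003 above the array median on all 4 arrays. The exception was ARSA, the arylsulfatase that breaks down cerebroside sulfate, with 66.8, 30.1, 88.0 and 71.7 in PIAS1 shRNA2 SCM, control SCM, PIAS1 shRNA2 DMEM and control DMEM. Its signals were all in the range of background, and no ratio is given for it. Signals of different probe sets depend on their probes, so the genes are compared between arrays only and not with each other.

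**Figure D1:**
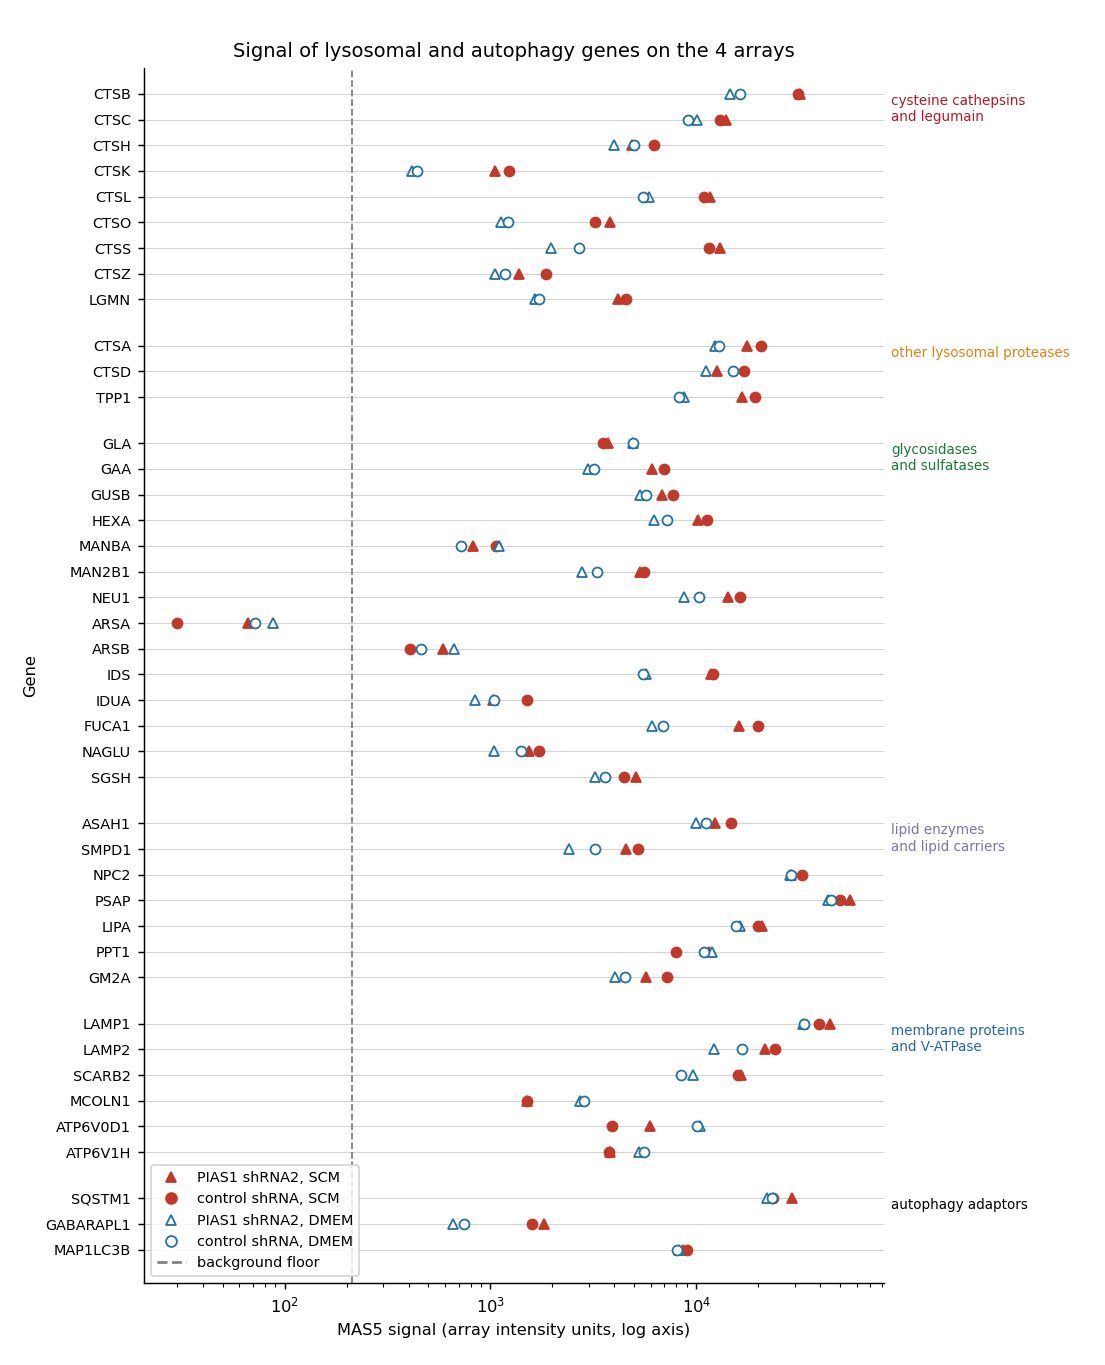
MAS5 signal (log axis, array intensity units) of the 42 genes, grouped by role, with 1 point per array: filled triangles PIAS1 shRNA2 in SCM, filled circles control shRNA in SCM, open triangles PIAS1 shRNA2 in DMEM, open circles control shRNA in DMEM. The dashed line marks the floor of 213, with only ARSA left of it. Points of the same medium lie close together for most genes, with both SCM points to the right of both DMEM points in 30 genes and to the left in 4.

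Medium was the comparison in which these genes differed. In PIAS1 shRNA2 cells, 34 of the 41 measured genes had a higher signal in SCM than in DMEM, with a median log2 ratio of 0.51, and 9 were 2-fold or more higher and 0 lower by as much. In control shRNA cells, 35 of 41 were higher, with a median of 0.53, and 9 were 2-fold or more higher and 1 lower by as much. Over all 9372 genes above the floor on at least 1 array, the median was 0.00 in both lines. Of these genes, 47.4% in PIAS1 shRNA2 cells and 48.8% in control shRNA cells had a ratio above 0. The share at least 2-fold higher was 10.3% in PIAS1 shRNA2 cells and 9.97% in control shRNA cells, with 9.98% and 10.3% at least 2-fold lower. Over the 6003 genes above the array median on all arrays, which are closer to these genes in brightness, 8.53% and 8.51% were at least 2-fold higher and 10.4% and 11.0% at least 2-fold lower. The 2-fold shares of the lysosomal genes were 22.0% higher in each line, and 0.00% and 2.44% lower.

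The arrays of the 2 lines are separate, and their medium ratios can be set side by side. The 8 genes at least 2-fold higher in SCM in both lines were CTSS, CTSO, CTSK, LGMN, FUCA1, GAA, IDS and GABARAPL1, or 19.5% of the 41, against 7.01% of all genes above the floor. CTSB passed 2-fold in PIAS1 shRNA2 cells alone and TPP1 in control shRNA cells alone, while CTSL fell just short in both lines, at 1.98-fold. In all, 34 genes were above 0 in both lines, 6 below 0 in both and 1, MANBA, opposite. Of the 9372 genes above the floor, 3503, or 37.4%, were above 0 in both lines, 3523 below 0 in both and 1445 opposite. The ratios of a gene in the 2 lines differed by a median of 0.15 on the log2 scale. Across the 41 genes they correlated with a Pearson r of 0.92, a description over genes, which are not replicates. The 6003 genes above the array median had a median difference of 0.21 and an r of 0.90, and all 9372 had 0.25 and 0.86. The r of 0.92 is thus near that of genes of like brightness.

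With the lines as the only repeats, a limma fit with shRNA and medium as terms had 1 residual degree of freedom per gene and took its spread largely from the other genes. It tests a medium effect that is alike in both lines. At an adjusted p of 0.05, 26 of the 41 genes rose and 4 fell in SCM, against 24.1% of 8619 genes tested that rose and 25.5% that fell. When any 1 of the 4 arrays was left out, with the medium as the only term, no gene of the 8619 passed, although 2884 to 3532 had an unadjusted p under 0.05. None passed either when the genes at the floor on all arrays were kept in the fit. The order of the signals needs no fit. Both SCM signals lay above both DMEM signals in 30 of the 41 genes, against 33.0% of all genes above the floor, and below them in 4, against 34.1%. These shares take in dim genes with signals tied at the floor, which count as overlapping. No such share was taken over genes of like brightness. The 7 genes whose media overlapped were CTSH, CTSD, MANBA, ARSB, IDUA, NPC2 and PPT1.

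**Figure D2:**
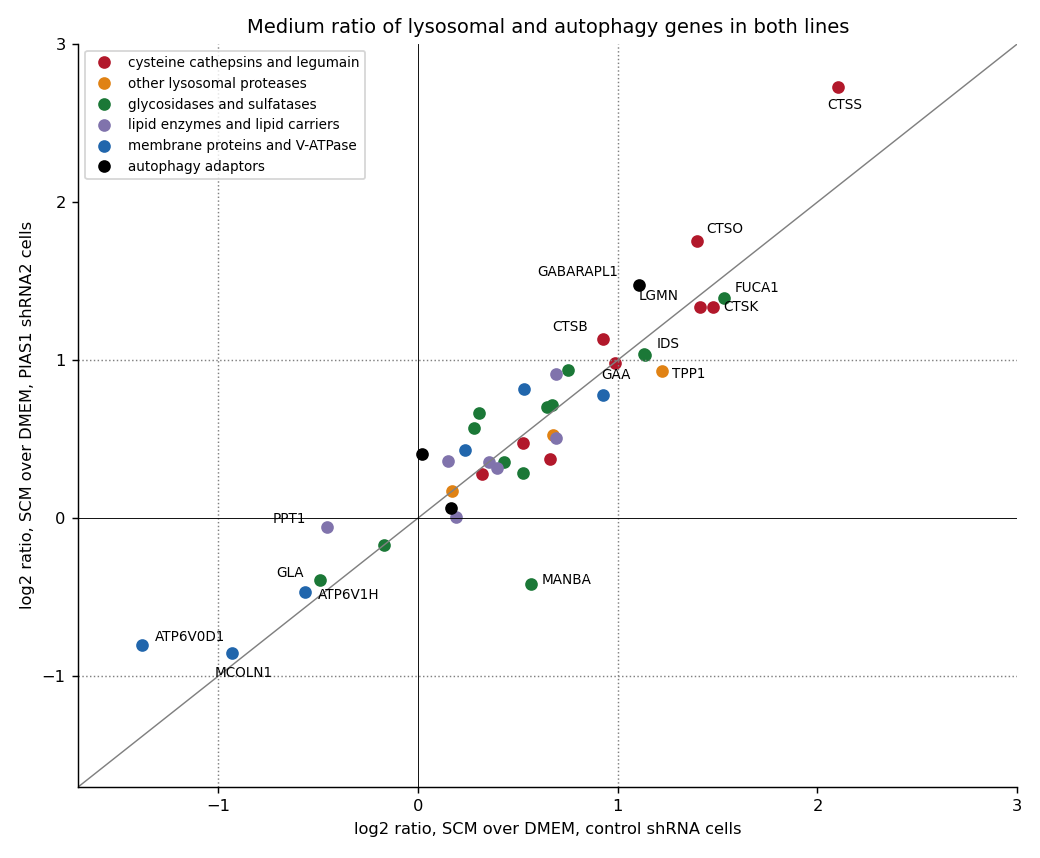
Log2 ratio of SCM over DMEM in PIAS1 shRNA2 cells (vertical axis) against the same ratio in control shRNA cells (horizontal axis), with 1 point per gene for the 41 genes above the floor, coloured by role. Dotted lines mark 2-fold and the diagonal marks equal ratios. CTSS stands at the upper right with 2.73 and 2.10, MCOLN1 and ATP6V0D1 at the lower left, and MANBA alone in the quadrant of opposite signs. The points of GAA and IDS coincide.

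The cysteine cathepsins and legumain, the papain-like proteases of the lysosome and the asparaginyl endopeptidase that matures them, were all higher in SCM in both lines. The median log2 ratio of these 9 genes was 1.14 in PIAS1 shRNA2 cells and 0.99 in control shRNA cells. In the limma fit 7 of the 9 rose, against 24.1% of all genes tested. CTSS, which trims the invariant chain of MHC class II in antigen-presenting cells, had the largest ratio of the 41 genes in both lines. Its signal was 13089.8 and 11566 in PIAS1 shRNA2 and control shRNA cells in SCM, against 1976 and 2695 in the same lines in DMEM. That is 6.62-fold and 4.29-fold, and the fitted medium effect was 2.41 ± 0.16 on the log2 scale (SE, limma adjusted p = 3.85e-08). A second, dimmer CTSS probe set had log2 ratios of 1.94 and 1.39, with its DMEM signal of 145 in PIAS1 shRNA2 cells below the floor.

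CTSO, a less studied cathepsin, read 3807 and 3216 in PIAS1 shRNA2 and control shRNA cells in SCM, against 1127 and 1220.0 in DMEM. CTSK, the collagen-degrading cathepsin of osteoclasts, read 1050.2 and 1226 in SCM, against 417 and 441 in DMEM. LGMN, or legumain, read 4171 and 4556 in SCM, against 1654 and 1712 in DMEM. For all 3 genes the 2 signals of a medium were close and the media were far apart, with ratios of 2.52-fold to 3.38-fold. CTSK was dim in DMEM, and with the floor raised to the array median its log2 ratio in PIAS1 shRNA2 cells was 0.79.

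CTSB and CTSL are the broadly expressed endopeptidases of the family. CTSB read 31844 and 31096 in PIAS1 shRNA2 and control shRNA cells in SCM, against 14494 and 16359 in DMEM. CTSL read 11631 and 10902 in SCM, against 5885 and 5500.5 in DMEM. The fitted effects were 1.03 ± 0.10 for CTSB and 0.98 ± 0.12 for CTSL (SE, limma adjusted p = 1.65e-06 and 1.2e-05). CTSC, the dipeptidyl peptidase that activates granule serine proteases, rose less, by 0.50 ± 0.11 (adjusted p = 0.00193). CTSH, an aminopeptidase, and CTSZ, a carboxypeptidase, were higher in SCM in both lines but did not pass (adjusted p = 0.0869 and 0.067).

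The other proteases split by gene. TPP1, a tripeptidyl peptidase lost in a form of neuronal ceroid lipofuscinosis, read 16652 and 19209 in PIAS1 shRNA2 and control shRNA cells in SCM, against 8720.1 and 8247 in DMEM. CTSA, a serine carboxypeptidase that also holds NEU1 and beta-galactosidase in a stable complex, read 17624 and 20657 in SCM, against 12264 and 12918 in DMEM. Both rose, by 1.08 and 0.60 on the log2 scale (limma adjusted p = 3.54e-06 and 0.000329). CTSD, the aspartic protease, read 12567 and 17015 in SCM, against 11154 and 15124 in DMEM. Its medium ratio was 0.17 in each line and its signals separated by line, with both PIAS1 shRNA2 signals below both control shRNA signals.

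Glycosidases and sulfatases strip sugars and sulfates from glycoproteins, glycolipids and glycosaminoglycans. Of the 13 measured, 8 rose and 1 fell in SCM in the limma fit, against 24.1% and 25.5% of all genes tested. Their median log2 ratios were 0.67 and 0.57 in PIAS1 shRNA2 and control shRNA cells. FUCA1, which removes fucose, read 16035 and 19847 in SCM, against 6096 and 6864 in DMEM. GAA, the acid glucosidase that degrades glycogen, read 6073 and 6994 in SCM, against 2974 and 3185 in DMEM. IDS, which removes sulfate from heparan and dermatan sulfate, read 11721 and 12064 in SCM, against 5695 and 5499 in DMEM. All 3 were over 2-fold higher in both lines and separated fully by medium. IDS has 9 probe sets, 3 of them below the floor on all arrays, and the other 6 had log2 ratios of 0.67 to 1.04 in PIAS1 shRNA2 cells and 0.18 to 1.13 in control shRNA cells. Their mean was 0.90 in each line, just short of 2-fold.

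HEXA, NEU1, MAN2B1, SGSH and GUSB rose less far, with fitted effects of 0.67, 0.69, 0.84, 0.49 and 0.39. NEU1, the sialidase, read 14310.4 and 16329 in PIAS1 shRNA2 and control shRNA cells in SCM, against 8719.6 and 10244 in DMEM. HEXA, the alpha subunit of hexosaminidase A, read 10184 and 11216 in SCM, against 6259 and 7171 in DMEM. GLA, the alpha-galactosidase lost in Fabry disease, went the other way, with 3741 and 3501 in SCM, against 4916 and 4922 in DMEM. It fell by 0.44 on the log2 scale in the fit (adjusted p = 0.0212), and its SCM signals were both below its DMEM signals. NAGLU, IDUA, ARSB and MANBA did not pass.

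MANBA, the beta-mannosidase, was the only gene whose medium ratio, on the brightest probe set, had opposite signs in the lines. Its signal was 822 and 1063 in PIAS1 shRNA2 and control shRNA cells in SCM, against 1098 and 718 in DMEM. The log2 ratios of SCM over DMEM were -0.42 in PIAS1 shRNA2 cells and 0.57 in control shRNA cells, from 1 probe set, and their difference was not tested. The dimmer probe set of SGSH was much like it, at -0.37 and 0.57, while the brighter one was at 0.67 and 0.30.

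Enzymes and carriers of lipids had the smallest medium ratios among the soluble lysosomal proteins, with medians of 0.35 and 0.36 in PIAS1 shRNA2 and control shRNA cells. SMPD1, the acid sphingomyelinase, read 4552 and 5199 in SCM, against 2417 and 3218 in DMEM, and rose by 0.80 (adjusted p = 0.000652). GM2A, the activator that presents a ganglioside to hexosaminidase, read 5697 and 7226 in SCM, against 4007 and 4478 in DMEM, and rose by 0.60 (adjusted p = 0.00241). ASAH1, the acid ceramidase, LIPA, the acid lipase for cholesteryl esters, and PSAP, the precursor of the saposins, also rose, by 0.36, 0.35 and 0.25. NPC2, the cholesterol carrier, read 28713 and 32756 in SCM, against 28549.9 and 28719.7 in DMEM, with overlapping media. PPT1, a thioesterase that removes fatty acids from proteins, read 11476 and 7976 in SCM, against 11928 and 10934 in DMEM, and its ratios were below 0 in both lines without passing (adjusted p = 0.108).

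The 6 genes of the lysosomal membrane and its proton pump split evenly between the directions. In the limma fit 3 rose and 3 fell, against 24.1% and 25.5% of all genes tested. LAMP2, an abundant glycoprotein of the lysosomal membrane and the receptor of chaperone-mediated autophagy in 1 of its forms, read 21549 and 23994 in PIAS1 shRNA2 and control shRNA cells in SCM, against 12226 and 16589 in DMEM. SCARB2, the receptor that carries glucocerebrosidase to the lysosome, read 16456 and 15979.6 in SCM, against 9599.6 and 8400.5 in DMEM. LAMP1 read 44616 and 39414 in SCM, against 33049.5 and 33467 in DMEM. These 3 rose, by 0.68, 0.85 and 0.33 on the log2 scale (limma adjusted p = 0.000142, 2.23e-05 and 0.00942). The dimmer LAMP1 probe sets had log2 ratios of 0.27, -0.16 and -0.007 in PIAS1 shRNA2 cells. In control shRNA cells the same probe sets had 0.31, 0.25 and 0.40.

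The other 3 genes of this group fell in SCM. ATP6V0D1, a subunit of the membrane sector of the V-ATPase, read 5971 and 3876 in PIAS1 shRNA2 and control shRNA cells in SCM, against 10396 and 10081 in DMEM. ATP6V1H, a subunit of its cytosolic sector, read 3816 and 3772 in SCM, against 5274 and 5576 in DMEM. MCOLN1, a calcium channel of the lysosomal membrane, read 1510.4 and 1502 in SCM, against 2731 and 2860.5 in DMEM. In each of the 3 both SCM signals were below both DMEM signals, and the fitted effects were -1.09, -0.52 and -0.89 (limma adjusted p = 2.85e-05, 0.00807 and 0.00131). Each was read by 1 probe set. Of the 5 genes with TCACGTGA in the windows shown above, GAA, CTSA and LAMP1 thus rose in SCM and MCOLN1 and ATP6V0D1 fell. For LAMP1 this was read on its brightest probe set.

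Of the 3 autophagy genes, 1 rose in the limma fit, near the 24.1% of all genes tested that rose. GABARAPL1, a member of the family that is lipid-linked to the autophagosome membrane, read 1828 and 1592 in PIAS1 shRNA2 and control shRNA cells in SCM, against 658 and 741 in DMEM, or 2.78-fold and 2.15-fold (fitted effect 1.29 ± 0.24 on the log2 scale, SE, limma adjusted p = 0.000417). MAP1LC3B, its LC3 relative, read 8608 and 8973 in SCM, against 8241 and 8011 in DMEM, with log2 ratios of 0.06 and 0.16. SQSTM1, which encodes the cargo adaptor p62, read 28992 and 23501 in SCM, against 21915 and 23203 in DMEM. Neither MAP1LC3B nor SQSTM1 passed (adjusted p = 0.463 and 0.128). The second and dimmer SQSTM1 probe set gave larger log2 ratios of 1.22 and 0.90, against 0.40 and 0.02 on the brighter one.

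Several probe sets of a gene gave a check within the arrays. In the 14 genes with at least 2 probe sets above the floor on all arrays, all probe sets of a gene had the same sign of the medium ratio in 12 genes in PIAS1 shRNA2 cells and in 14 in control shRNA cells. The exceptions were LAMP1 and SGSH. The 2 SGSH probe sets were the farthest apart in PIAS1 shRNA2 cells, at 0.67 and -0.37. The median distance between the highest and the lowest probe set of a gene was 0.34 and 0.26 on the log2 scale in PIAS1 shRNA2 and control shRNA cells, which is of the size of the smaller ratios above. The 4 CTSB probe sets lay between 0.78 and 1.46 in PIAS1 shRNA2 cells and between 0.93 and 1.26 in control shRNA cells, and 3 TPP1 probe sets between 0.93 and 1.10 and between 1.20 and 1.32.

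**Figure D3:**
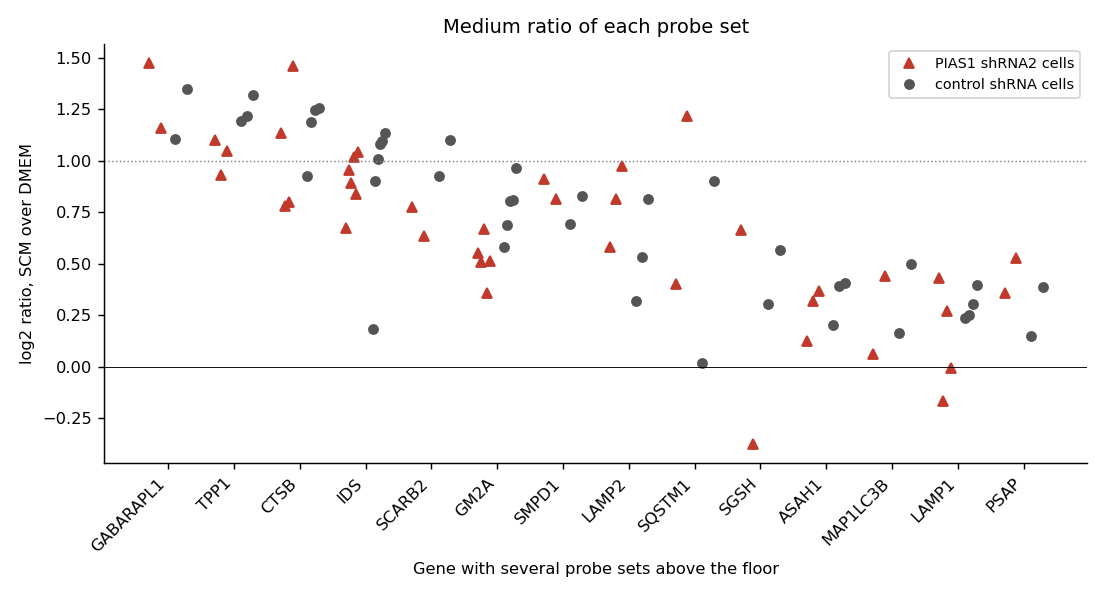
Log2 ratio of SCM over DMEM for each probe set above the floor on all arrays, for the 14 genes with at least 2 of them: triangles PIAS1 shRNA2 cells, circles control shRNA cells, with 2-fold dotted. Probe sets of GABARAPL1, TPP1, CTSB and SCARB2 stay well above 0, whereas those of SQSTM1 spread between 0.02 and 1.22 and 1 probe set of SGSH lies at -0.37.

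Lysosomal genes are also rich in macrophages, so markers of other cell types were read on the same arrays. The summed signal of the 9 measured leukocyte and macrophage markers was 3940.1 and 4839 in PIAS1 shRNA2 and control shRNA cells in SCM, against 1621 and 2115 in DMEM. It was higher in SCM mostly through CSF1R, the receptor for a macrophage growth factor, with 1898 and 2537 against 414 and 572. CD14 was also higher in SCM, with 961 and 1172 against 355 and 627. CD14, CSF1R and FCER1G were above the floor on all arrays, while PTPRC, AIF1 and TYROBP were below it on all of them. CD163 and CD3E were above the floor on 1 array each and CD79A on 2. The 3 endothelial markers summed to 3423 and 2258 in SCM, against 361 and 391 in DMEM, with PECAM1 above the floor and VWF and CDH5 below it on all arrays. The 4 fibroblast markers summed to 1404 and 1359 in SCM, against 1020.4 and 1132 in DMEM, with COL1A1 the only one above the floor on all arrays. Their part in the medium ratios was not tested. In RNA from whole cultures, a change in the share of some cells and a change of RNA per cell cannot be told apart, and neither can the serum, the growth factors and the other differences between the media.

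PIAS1 knockdown left all 41 genes within 2-fold. In SCM the count past 2-fold was 0 higher and 0 lower in PIAS1 shRNA2 cells, against 1.93% and 1.23% of all genes above the floor, or 0.700% and 0.683% of those above the array median. In DMEM the counts were 0 and 0 as well, against 1.15% and 0.640%, or 0.383% and 0.333%. At these shares fewer than 1 of 41 genes would be past 2-fold in a given direction, so the count of 0 is near the background. The log2 ratios ran between -0.55 and 0.62 in SCM and between -0.45 and 0.61 in DMEM, with medians of -0.07 and -0.08.

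The limma fit of a knockdown effect alike in both media called 0 of the 41 genes, while 0.893% of the 8619 genes rose and 0.476% fell. At an unadjusted p under 0.05 there were 5 of the 41 and 1004 of the 8619. PIAS1 itself fell by 1.43 on the log2 scale in this fit (adjusted p = 0.00607). The lowest adjusted p among the lysosomal genes was that of CTSD. Its signal was 12567 in PIAS1 shRNA2 cells and 17015 in control shRNA cells in SCM, and 11154 and 15124 in DMEM. The log2 ratio was -0.44 in both media, and the fitted effect -0.44 ± 0.11 (SE, adjusted p = 0.0697), from 1 probe set. With quantile normalization, or with the genes above the floor on all arrays alone, CTSD was called lower (adjusted p = 0.027 and 0.0492). It was not called without the variance trend, with all genes in the fit or with the shRNA as the only term.

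ARSB, IDUA, CTSH and LAMP2 were among the genes with the same sign in both media. ARSB, the sulfatase for dermatan and chondroitin sulfate, read 588 in PIAS1 shRNA2 cells and 408 in control shRNA cells in SCM, and 662 and 459 in DMEM. It was dim and had 1 probe set, with only its PIAS1 shRNA2 signal in DMEM above the array median of 605. IDUA, the iduronidase lost in Hurler syndrome, read 1027 and 1507 in SCM, and 844 and 1045 in DMEM. CTSH read 4847 and 6233 in SCM, and 3987 and 4991 in DMEM. ARSB was higher and IDUA and CTSH were lower in PIAS1 shRNA2 cells in both media, but the adjusted p-values of the fit were 0.463, 0.516 and 0.328. LAMP2, with the signals given above, had log2 ratios of -0.16 in SCM and -0.44 in DMEM (adjusted p = 0.28).

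In SCM the largest ratios above 0 were those of ATP6V0D1, at 0.62, ARSB, at 0.53, and PPT1, at 0.52. Both ARSB signals in SCM were below the array median of 605. ATP6V0D1 and PPT1 had ratios of only 0.04 and 0.13 in DMEM, and each has 1 probe set. MANBA again had opposite signs, with -0.37 in SCM and 0.61 in DMEM. Across the 41 genes 7 (17.1%) were above 0 in both media, 19 below 0 in both and 15 opposite. Of the 9372 genes above the floor, 2428 (25.9%), 2346 and 3474 were so. In SCM 18 of the 41 were above 0 and 23 below it, and in DMEM 11 and 30. The shares above 0 were 43.9% in SCM and 26.8% in DMEM, against 50.2% and 48.6% of the 6003 genes above the array median. These signs were not tested. In the 14 genes with several probe sets, all probe sets had the same sign in 7 genes in SCM and in 8 in DMEM. The median distance between probe sets of a gene was 0.20 and 0.19, which is larger than the typical size of these ratios, with medians of 0.19 and 0.15 regardless of sign.

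**Figure D4:**
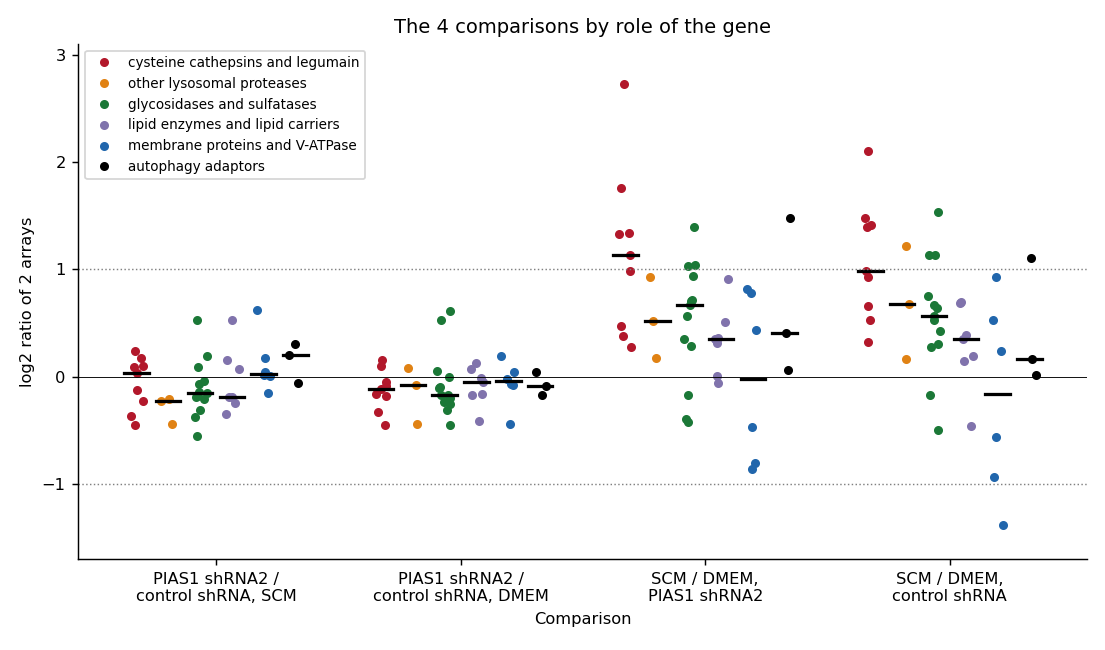
Log2 ratio of 2 arrays for each of the 41 genes above the floor in the 4 comparisons, coloured by role, with the median of each role as a black bar and 2-fold dotted. The ratios of PIAS1 shRNA2 over control shRNA stay within 2-fold in both media, whereas those of SCM over DMEM reach 2.73 in PIAS1 shRNA2 cells and 2.10 in control shRNA cells, with medians of 1.14 and 0.99 for the cysteine cathepsins and legumain.

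A wider list of the pathway was taken by name and not by ratio, but with earlier results of these data known. It held 135 further genes, of which 103 were measured and 100 were above the floor on at least 1 array. In SCM, 9 of the 100 were past 2-fold above their DMEM signal and 3 past 2-fold below it in PIAS1 shRNA2 cells, and 11 and 4 in control shRNA cells. Over all genes above the floor, the shares were 10.3% and 9.98% in PIAS1 shRNA2 cells and 9.97% and 10.3% in control shRNA cells. None was past 2-fold with the knockdown in either medium. In the limma fit of the knockdown 1 of them was called, CREG1, a secreted lysosomal glycoprotein, which read 9478 in PIAS1 shRNA2 cells and 14128 in control shRNA cells in SCM, and 6601 and 9090.0 in DMEM (fitted effect -0.52 ± 0.12, SE, adjusted p = 0.0462). This call was lost without the variance trend (adjusted p = 0.408), with all genes in the fit (0.81), with common-median scaling (0.187), with the shRNA as the only term and with any array left out.

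Of 12 further enzymes and activators tested, 8 rose and 0 fell in SCM, against 24.1% and 25.5% of all genes tested, with medians of 0.53 and 0.69 in PIAS1 shRNA2 and control shRNA cells. CTSF read 3665 and 4722 in SCM, against 1762 and 1943 in DMEM, and CTSV read 2379 and 3152 in SCM, against 1145 and 1232 in DMEM. SCPEP1, a carboxypeptidase, had log2 ratios of 1.02 and 0.92. Among 12 further membrane proteins 4 rose and 2 fell, the 4 being near the share over all genes. LAPTM5, a lysosomal membrane protein of blood cells, read 31316 and 28080.4 in PIAS1 shRNA2 and control shRNA cells in SCM, against 7105 and 3659 in DMEM. SLC17A5, which exports sialic acid, read 19275 and 21508 in SCM, against 6723 and 7146 in DMEM. SIDT2, a lysosomal RNA transporter, had log2 ratios of 0.69 and 1.26.

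The V-ATPase and the sorting machinery were mixed. Of 14 further V-ATPase genes 4 rose and 2 fell, near the 24.1% that rose over all genes and under the 25.5% that fell, with medians of 0.03 and 0.01, and 8 of the 14 were above 0 in each line. TCIRG1, the form of the pump's largest membrane subunit used in osteoclasts, read 4772 and 5602 in PIAS1 shRNA2 and control shRNA cells in SCM, against 2369 and 2621 in DMEM. ATP6V0A2, another form of the same subunit, read 407 and 481 in SCM, against 1479 and 1607 in DMEM, with log2 ratios of -1.86 and -1.74 from the only one of its probe sets above the floor. M6PR, the smaller mannose 6-phosphate receptor, read 2799 and 2273 in SCM, against 6825 and 5390.3 in DMEM, and fell by 1.27 in the fit (limma adjusted p = 8.16e-06). Of the 7 sorting genes tested, 1 rose and 2 fell, near the shares of 24.1% and 25.5% over all genes.

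Among 30 genes of the autophagy machinery tested, 9 rose and 2 fell in SCM. Over all genes the shares were 24.1% and 25.5%, so the count that rose is near the background. WIPI1, which binds the phospholipid of the forming autophagosome, read 9781 and 10964 in PIAS1 shRNA2 and control shRNA cells in SCM, against 3439.7 and 3491 in DMEM. ULK1, the kinase that starts autophagy, read 1645 and 1065 in SCM, against 824 and 477 in DMEM. ATG14, a subunit of the lipid kinase complex of autophagy, had log2 ratios of 0.98 and 1.30, and GABARAPL2 of 1.03 and 0.98. These 4 passed the fit, with both SCM signals above both DMEM signals.

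The transcription factors of these genes differed among themselves. TFEB read 597 and 757 in PIAS1 shRNA2 and control shRNA cells in SCM, against 377 and 437 in DMEM. TFE3 read 5045 and 5122 in SCM, against 2920.1 and 3757 in DMEM. MITF read 662 and 603 in SCM, against 1651 and 1369.5 in DMEM. In the limma fit TFEB and TFE3 rose, by 0.73 and 0.62 (adjusted p = 0.0312 and 0.00406), and MITF fell by 1.25 (adjusted p = 0.00057). TFEB was dim, with only its control shRNA signal in SCM above the array median of 605. Both its DMEM signals were below 443, the floor at the 95th percentile. FOXO1 had log2 ratios of 0.50 and 1.15. Of 17 genes of mTORC1 and its lysosomal regulators tested, 5 rose and 4 fell, near the shares of 24.1% and 25.5% over all genes. DDIT4, an inhibitor of mTORC1 that stress induces, read 45630.4 and 47560.3 in SCM, against 18300.3 and 20558 in DMEM. MTOR read 165 and 168 in SCM, both below the floor, against 421 and 509 in DMEM.

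**Figure D5:**
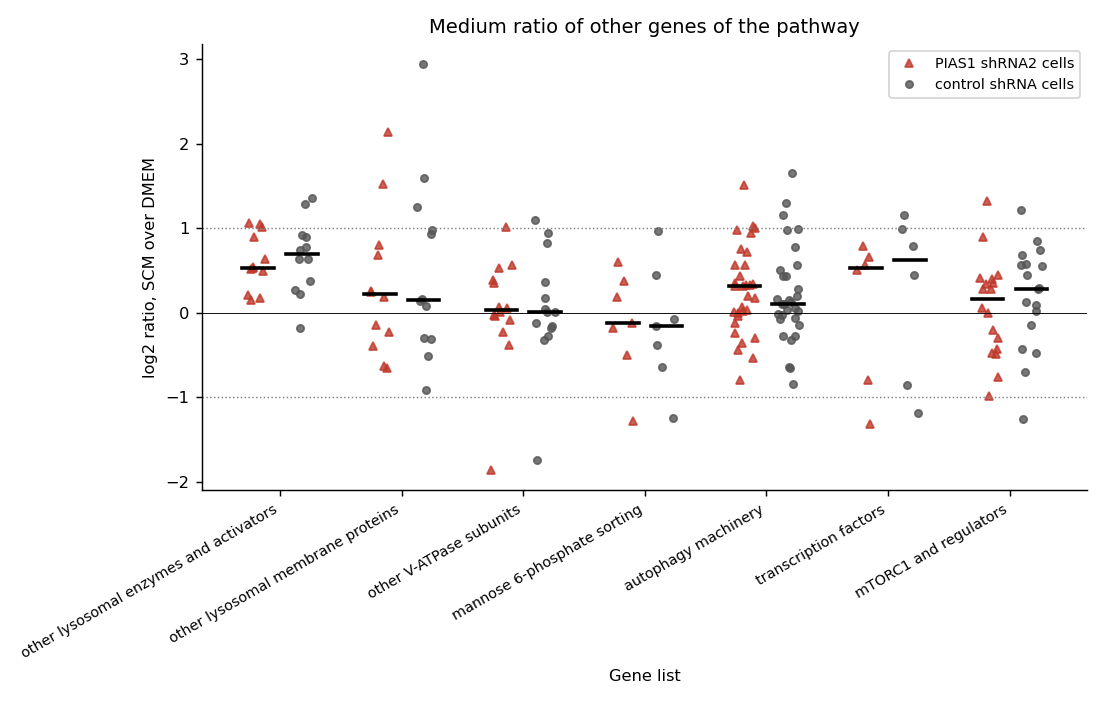
Log2 ratio of SCM over DMEM for the further genes of the pathway by list, triangles for PIAS1 shRNA2 cells and circles for control shRNA cells, with the median of each list as a black bar and 2-fold dotted. The enzymes and activators lie almost all above 0, with medians of 0.53 and 0.69, whereas the V-ATPase subunits are spread around 0 and LAPTM5 stands highest, at 2.14 and 2.94.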

How the data were processed

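The deposited table holds signal intensity values on a linear scale for 22277 probe sets, and the submitters' processing notes name MAS5, with neither its version nor its settings given in the sources used here. Detection calls were not used. The trimmed mean of 2499 on all 4 arrays shows the scaling the authors applied. Names came from the platform's annotation, which lists 19070 probe sets for 1 gene, 1043 for several and 2164 for none. Where a gene had several probe sets, the one brightest on average over the log2 signals stood for it. The floor of 213 was the 75th percentile, on the array where it was highest, of 129 probe sets for 85 genes of other tissues. A ratio of at least 2-fold was counted, without a test. The medium and the knockdown ratios share arrays with each other. limma 3.58.1 in R 4.3.3 was fitted to the log2 signals after the floor, with terms for shRNA and medium and a variance trend, over 8619 genes above the floor on at least 2 arrays, with Benjamini-Hochberg adjustment. Python 3.11.15, NumPy 2.4.6, pandas 2.3.3 and matplotlib 3.10.9 did the rest, and the steps were tested on simulated data. Alternatives tried were the mean of a gene's probe sets (all, or those above the floor), quantile normalization, common-median scaling, other floors and, for limma, the trend, the filter, the terms and each array left out. Nothing in the labels says that arrays repeat a culture, and their number limits the precision. The genes, the lists, the tests and the markers were chosen with earlier results of these data known. Named were the members at least 2-fold different in a comparison or called by limma, the 3 brightest of each role, SQSTM1, MAP1LC3B, GABARAPL1, LAMP1 and LAMP2, and of the wider list those at least 2-fold different, TFEB, TFE3 and MITF. ARSA, ARSB, CTSH, CTSZ, IDUA, MANBA, NAGLU, PPT1 and CREG1 were named after their values were seen. Promoter windows are from RefSeq, GRCh38.p14, and 14 of the 43 genes had none in the table used.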

Additional observations from a re-analysis of the deposited data

Results flagged for a closer look

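On the brightest probe set of each gene, MANBA, the beta-mannosidase, was the only one of the 41 whose ratios were opposite in sign and at least 0.25 in size on both sides. Its log2 ratio of SCM over DMEM was -0.42 in PIAS1 shRNA2 cells and 0.57 in control shRNA cells, and its knockdown ratio, PIAS1 shRNA2 over control shRNA on the log2 scale, was -0.37 in SCM and 0.61 in DMEM. Both contrasts use the same 4 arrays and 1 probe set, so they are 1 observation seen from 2 sides. The difference between the ratios was not tested, as each condition has 1 array. MANBA was not alone when dimmer probe sets were read. The dimmer SGSH probe set had medium ratios of -0.37 in PIAS1 shRNA2 cells and 0.57 in control shRNA cells. Its knockdown ratios were -0.38 in SCM and 0.56 in DMEM.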

How the results depend on the processing

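Each condition has 1 array, so there were no replicates to pair. The limma fit with both terms compares the media within each line. Under other floors, scalings and readings of a gene, the members at least 2-fold different with the knockdown stayed at 0 in both media, those higher in SCM lay between 8 and 10 in each line, and those lower in SCM stayed at 0 in PIAS1 shRNA2 cells and at 1 in control shRNA cells, except for 2 with common-median scaling. The median medium ratio of the members lay between 0.44 and 0.52 in PIAS1 shRNA2 cells and between 0.44 and 0.56 in control shRNA cells. No direction reversed. In limma the medium calls among the members were 26 higher and 4 lower, with 19 to 27 higher and 3 or 4 lower without the trend, with the stricter filter, with medium alone and under both scalings. With all 11963 genes in the fit, including those at the floor on all arrays, 0 genes and 0 members were called for either effect, although 3446 genes had an unadjusted p under 0.05 for the medium and 700 for the knockdown. With each array left out in turn, every count of calls, for all genes and for members and for both effects, was 0 in each case (a range of 0 to 0), with 2884 to 3532 genes at an unadjusted p under 0.05 for the medium and 31 to 119 for the knockdown. The knockdown calls of 77 higher and 41 lower became 1 and 0 without the trend, 0 and 0 with the shRNA as the only term (79 at an unadjusted p under 0.05), 13 and 11 with common-median scaling, and 66 lower with quantile normalization. With quantile normalization, and with only genes above the floor on all arrays, 1 member, CTSD, was called lower. The cause was not tested. The mean over the probe sets above the floor on all arrays was added after seeing the data, because the mean over all probe sets takes in probe sets at background. Of the log2 ratios of single members under an alternative, 127 stayed on their side of 2-fold, 3 passed it (CTSB in control shRNA cells at 1.15 under both means, and TPP1 in PIAS1 shRNA2 cells at 1.03 under the added one) and 6 fell short. Those 6 were CTSK and GAA in PIAS1 shRNA2 cells and IDS in both lines under both means. For IDS the added mean was 0.90 in each line, whereas the mean over all 9 probe sets, 3 of them at background, gave 0.15 and 0.79 in PIAS1 shRNA2 and control shRNA cells. For the named genes of the wider list 176 stayed, 8 passed it and 13 fell short.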
